A study of Rattus norvegicus with 6 samples.

Results

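The receptors through which retinoic acid (RA) acts on transcription were examined in primary rat chondrocytes, the cells of cartilage. The group was made of the retinoic acid receptors *Rara*, *Rarb* and *Rarg*, the retinoid X receptors *Rxra*, *Rxrb* and *Rxrg*, and the cofactors *Ncor1* and *Nrip1*. These 8 genes of the 18923 in the deposited tables were chosen by gene name, as receptor paralogs and cofactors, and each name matched 1 Ensembl identifier. The chondrocytes came from wild-type (WT) female Sprague-Dawley rats aged 24 h and were used at passage 1 to 2. The CON group (3 samples) was kept for 24 h in high-glucose DMEM with 10% FBS and penicillin-streptomycin, and the RA group (3 samples) in the same medium with 1 µM all-trans retinoic acid (ATRA). The sources used here name no vehicle for the CON group and no number of rats behind a sample. The replicates are described as biologically independent, with no statement of whether each came from other animals, and p-values measure the spread between these samples. Poly(A) RNA was sequenced, which asks here whether 24 h of RA changed the RNA of its own receptors.

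RA is made inside cells from vitamin A and enters the nucleus, where it binds a retinoic acid receptor (RAR) held on DNA in a pair with a retinoid X receptor (RXR). The classical binding site is a direct repeat of a hexamer half-site. Without ligand the pair holds a corepressor complex such as that built on NCOR1, and with ligand the corepressors leave and coactivators come in. NRIP1, also known as RIP140, is a cofactor that is recruited by ligand-bound receptors and represses them. RXRs also pair with the peroxisome proliferator, thyroid hormone, vitamin D and liver X receptors. *Rarb* is a textbook target of RA, read from a direct repeat with a spacer of 5 bases (DR5) in its promoter. In growth cartilage RARγ is the RAR best known for its role in chondrocytes.

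String matches to such direct repeats were looked for in RefSeq promoter windows and are shown first. Windows reached from 250 bases before to 50 bases after a transcript's start on GRCr8, which is another build than the one behind the counts (Rnor_6.0). The half-site searched was the consensus hexamer AGGTCA, its variant AGTTCA, its variant GGGTCA or the variant with both changes, GGTTCA, on either strand, and DR5, DR2 and DR1 were 2 such half-sites in direct repeat with 5, 2 or 1 bases between them, so every direct repeat also holds half-sites. The 8 members had 9 windows, because *Rarg* has 2 starts. In the 250 bases before the start, no member window held a DR5, DR2 or DR1. When the 50 bases after the start were added, which was decided after the data had been seen, *Rarb* alone among the members held a DR5, on its own strand, 25 to 41 bases after the start at chr15:11336416-11336432. A DR5 was present in 128 of all 33469 windows of 300 bases (0.382%). Of the retinoid pathway genes described further on, *Cyp26a1* held a DR5 on the opposite strand, 92 to 76 bases before the start at chr1:244883730-244883746. It was the only 1 of the 16 such genes with a window to hold a DR5. *Cyp26b1*, *Cyp26c1*, *Dhrs3*, *Dhrs9* and *Rarres1*, which also changed with RA, held none. A DR5 was found in 109 of the 33469 stretches of 250 bases before a start (0.326%). Both sites are given 5′ to 3′ on the strand of their gene (the + strand), with the half-sites in capitals.
Rarb: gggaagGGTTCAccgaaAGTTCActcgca
Cyp26a1: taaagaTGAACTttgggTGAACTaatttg
The 250 bases before the *Rarb* start (chr15:11336142-11336391, + strand) ended in a single half-site, in capitals below.
Rarb upstream: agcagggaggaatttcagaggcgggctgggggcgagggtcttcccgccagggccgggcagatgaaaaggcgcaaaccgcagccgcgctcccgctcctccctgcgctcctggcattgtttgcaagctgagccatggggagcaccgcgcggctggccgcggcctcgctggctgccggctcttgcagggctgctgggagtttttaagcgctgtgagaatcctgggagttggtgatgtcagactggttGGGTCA
At least 1 half-site was found in 39.1% of all stretches of that length, and *Rara*, *Ncor1* and the first start of *Rarg* also held 1 each. A match is a string of letters in a window and was not tested for binding.

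Total counts ran from 30170909 to 38007486 in CON and from 29370025 to 30952882 in RA. CON replicate 1 stood apart from the others. Its counts differed from those of the other CON samples by a chi-square of 39.5 and 63.6 per degree of freedom, against 6.41 to 8.14 for the pairs of samples without it within a group. It was the lowest of the 6 samples in 31.4% and the highest in 31.0% of all genes tested, and among the 7 members tested it was the lowest in 3 and the highest in 1. The fit without it is given for each member tested. All 7 chondrocyte markers were present (Col2a1, Acan, Sox9, Col9a1, Hapln1, Matn3 and Comp), with summed FPKM from 6273 to 8250 in CON and from 3967 to 4275 in RA, and 6 of them were lower in RA by the test used below. Summed FPKM of other cell types' markers ran, in CON and RA, from 13.2 to 14.6 and from 16.1 to 17.3 for macrophages, from 4.72 to 6.00 and from 6.96 to 7.87 for skeletal muscle, from 2.27 to 3.25 and from 4.22 to 5.53 for adipocytes, from 3728 to 4918 and from 4811 to 5065 for fibroblasts and perichondrium, and stayed at or under 0.178 for endothelium. Among these, *Fabp4* and *Myod1* were DEGs that rose and *Postn* was a DEG that fell. The part of these differences in the results below was not tested, and in bulk RNA fewer cells of a type and less RNA per cell cannot be told apart.

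Of the 8 members, 7 passed the filter on low counts, and *Rarb* was the single differentially expressed gene (DEG) among them. To be called a DEG, a gene needed an adjusted p (Benjamini-Hochberg, edgeR's quasi-likelihood test over all genes) below 0.05 and a fold change past 0.58 on the log2 scale, up or down. The test covered 13438 genes and called 667 (4.96%), 359 of them with more RNA in RA (2.67%). On the adjusted p alone, 9.82% of all genes passed, 5.31% in the direction of *Rarb*, and *Rarb* was again the only member. The remaining members tested had fitted log2 fold changes between -0.10 and 0.32. The FPKM of the groups did not overlap for *Rarb*, *Rxra* and *Nrip1*, each higher in RA, and 18.9% of all genes tested did not overlap in that direction.

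**Figure D1:**
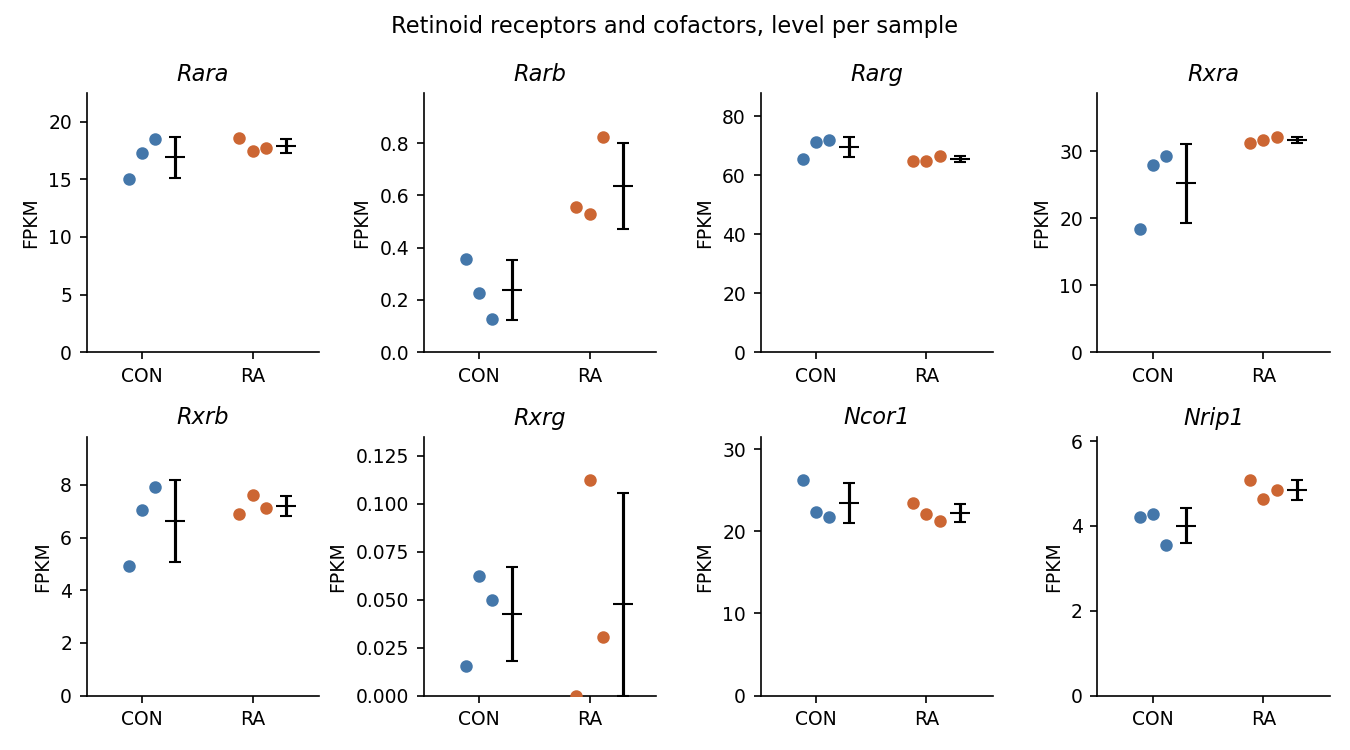
FPKM (y axis, each panel with its own scale from 0) of the 8 members in each CON sample (blue) and RA sample (orange), in the order of replicates 1 to 3, with the group mean and SD in black beside them (the lower bar of *Rxrg* in RA ends at 0). *Rarb*, *Rxra* and *Nrip1* did not overlap between groups, and CON replicate 1 was the low sample for *Rara*, *Rxra* and *Rxrb*.

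*Rarg* (ENSRNOG00000012499) encodes RARγ and was by far the most abundant receptor of the family. Its level was 65.5, 71.1 and 72.0 FPKM in CON replicates 1 to 3 and 65.0, 64.9 and 66.6 FPKM in RA replicates 1 to 3. The RA samples lay close together, and the lowest CON sample fell among them. The mean was 69.6 ± 3.54 FPKM for the CON group and 65.5 ± 0.968 FPKM for the RA group (SD, n = 3), higher than 91.7% of the genes tested by mean FPKM. The log2 fold change of RA over CON was -0.10 (SE 0.0610, 95% interval -0.24 to 0.04, adjusted p = 0.362). Leaving out CON replicate 1 gave -0.14 with an adjusted p of 0.0494, which passed, but far inside the fold threshold.

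*Rara* (ENSRNOG00000009972) encodes RARα, the RAR with the broadest tissue distribution. It stood at 15.0, 17.3 and 18.5 FPKM in CON and at 18.5, 17.4 and 17.7 FPKM in RA. The groups overlapped, with the RA samples near the upper CON samples. The means were 16.9 ± 1.78 and 17.9 ± 0.584 FPKM (SD, n = 3), and the log2 fold change was 0.07 (SE 0.0875, 95% interval -0.13 to 0.27, adjusted p = 0.686). Its sign turned to -0.02 when CON replicate 1, its lowest sample, was left out.

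*Rarb* (ENSRNOG00000024061) encodes RARβ and rose in RA from a very low level. The reads counted on it were 34, 21 and 15 in CON and 51, 48 and 79 in RA. In FPKM these were 0.358, 0.225 and 0.128 in CON and 0.556, 0.529 and 0.825 in RA. Every RA sample was above every CON sample, with RA replicate 3 the highest and CON replicate 3 the lowest. The means were 0.237 ± 0.116 and 0.637 ± 0.164 FPKM (SD, n = 3), and its mean over all samples was above that of only 8.54% of the genes tested. As a share of all reads, in the usual unit CPM that ignores gene length, the group sums were 70 reads in CON, or 0.708 CPM (exact Poisson 95% interval 0.552 to 0.894), and 178 reads in RA, or 1.98 CPM (1.70 to 2.29). These intervals cover counting error only.

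The log2 fold change of *Rarb* was 1.43 (SE 0.376, 95% interval 0.57 to 2.29), which is 2.69-fold, with an adjusted p of 0.0493 that only just passed. The call held in 1 of the 6 fits that left out a sample, the one without CON replicate 1 (1.85, adjusted p = 0.00367). It was lost without CON replicate 2 (1.40, adjusted p = 0.148), CON replicate 3 (1.12, adjusted p = 0.0866), RA replicate 1 (1.52, adjusted p = 0.108), RA replicate 2 (1.54, adjusted p = 0.106) and RA replicate 3 (1.19, adjusted p = 0.197). The fold change stayed above 0.58 in each of them. DESeq2 gave an adjusted p of 0.00636 with all samples, while edgeR with a replicate block gave 0.0526.

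**Figure D2:**
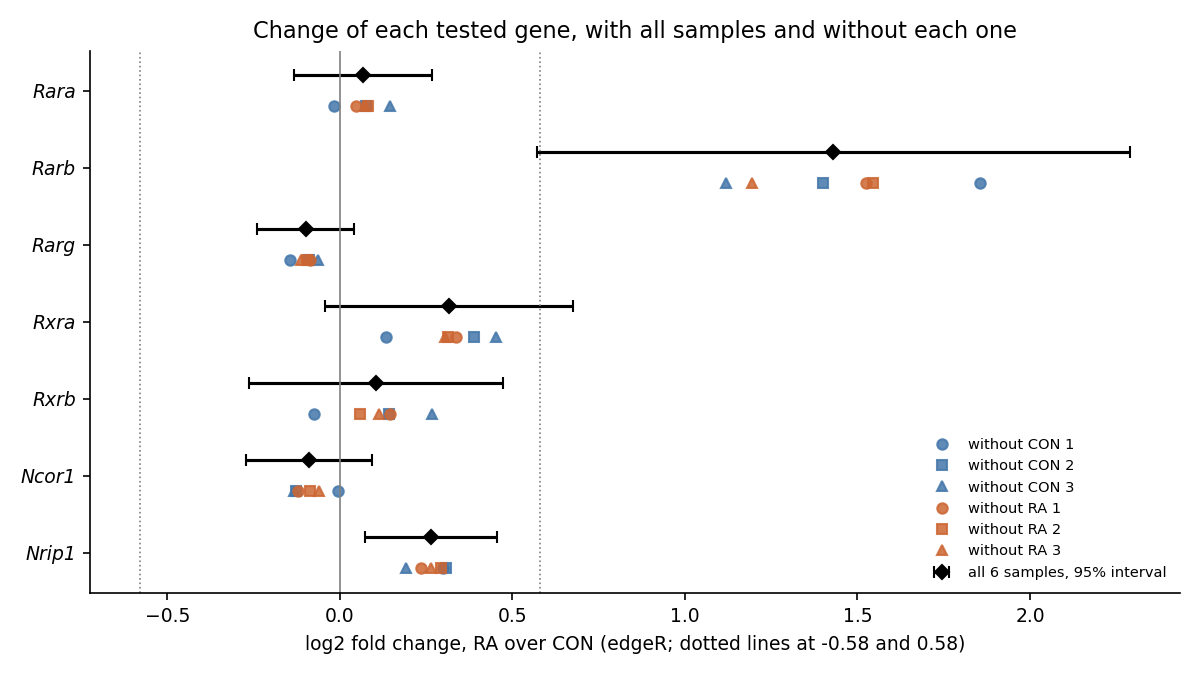
Fitted log2 fold change of RA over CON (x axis) for the 7 members tested, with all samples (black diamond, 95% interval) and with each sample left out (coloured symbols; dotted lines at the fold threshold of 0.58 either way). *Rarb* lies from 1.12 to 1.85 in these fits, all other members lie between -0.14 and 0.45, and the blue circles show how far *Rxra* and *Rxrb* shift without CON replicate 1.

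*Rxra* (ENSRNOG00000009446) encodes RXRα and led the RXR genes. Its level was 18.4, 28.0 and 29.3 FPKM in CON and 31.3, 31.7 and 32.2 FPKM in RA. All RA samples were above all CON samples, but CON replicate 1 lay much further below than the other CON samples did. The means were 25.2 ± 5.93 and 31.7 ± 0.476 FPKM (SD, n = 3), with a log2 fold change of 0.32 (SE 0.157, 95% interval -0.04 to 0.68, adjusted p = 0.264). Without CON replicate 1 it was 0.13 (adjusted p = 0.134), and neither fit passed the adjusted p or the fold threshold.

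*Rxrb* (ENSRNOG00000000464), which encodes the widely expressed RXRβ, was measured at 4.91, 7.04 and 7.93 FPKM in CON and at 6.88, 7.63 and 7.11 FPKM in RA. The RA samples lay inside the CON range. The means were 6.63 ± 1.55 and 7.21 ± 0.383 FPKM (SD, n = 3), with a log2 fold change of 0.10 (SE 0.161, 95% interval -0.26 to 0.47, adjusted p = 0.736). Leaving out CON replicate 1 turned the sign, to -0.07.

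*Rxrg* (ENSRNOG00000004537) encodes RXRγ, known from muscle and parts of the nervous system, and was at the limit of detection. Its reads numbered 1, 4 and 4 in CON and 0, 7 and 2 in RA, at most 0.112 FPKM. The group sums were 9 and 9 reads, or 0.0910 CPM in CON (exact Poisson 95% interval 0.0416 to 0.173) and 0.100 CPM in RA (0.0457 to 0.190). RA replicate 1, with no read, allows up to 3 reads, or 0.101 CPM. A difference within the group intervals was not detectable at this depth, and the gene did not pass the filter for the test.

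The cofactors were both expressed. *Ncor1* (ENSRNOG00000055246), the corepressor that unliganded RARs hold, stood at 26.2, 22.4 and 21.8 FPKM in CON and at 23.4, 22.0 and 21.3 FPKM in RA. The groups overlapped, with CON replicate 1 the highest sample. The means were 23.5 ± 2.42 and 22.2 ± 1.06 FPKM (SD, n = 3), and the log2 fold change was -0.09 (SE 0.0795, 95% interval -0.27 to 0.09, adjusted p = 0.536). Leaving out CON replicate 1 brought it to -0.0059 (adjusted p = 0.959).

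*Nrip1* (ENSRNOG00000001585), the ligand-dependent repressor, was measured at 4.21, 4.27 and 3.54 FPKM in CON and at 5.08, 4.63 and 4.84 FPKM in RA. All RA samples lay above all CON samples. The means were 4.01 ± 0.405 and 4.85 ± 0.227 FPKM (SD, n = 3), and the log2 fold change of 0.26 (SE 0.0834, 95% interval 0.07 to 0.45) had an adjusted p of 0.0930. Without CON replicate 1 it was 0.30 with an adjusted p of 0.0190, again short of the fold threshold. In FPKM, *Ncor1* was 6.23, 5.23 and 6.15 times as abundant as *Nrip1* in CON and 4.60, 4.76 and 4.40 times in RA. This ratio of chosen genes was given no test. It did not overlap between groups, beside 32.2% of all genes tested whose FPKM did not overlap in either direction.

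The order of the levels in FPKM was the same in both groups, with *Rarg* first, then *Rxra*, *Ncor1*, *Rara*, *Rxrb*, *Nrip1*, *Rarb* and *Rxrg*. Neighbours in this order did not overlap in their samples, except *Rxra* and *Ncor1* in CON. The RAR transcripts were therefore mostly *Rarg* and *Rara*, and the RXR transcripts mostly *Rxra*. Of the summed RAR FPKM, *Rarg* held 80.2 ± 0.780% in the CON group and 78.0 ± 0.586% in the RA group (SD, n = 3), *Rara* held 19.5 ± 0.931% and 21.3 ± 0.678%, and *Rarb* held 0.279 ± 0.153% and 0.756 ± 0.185%. None of these 3 shares overlapped between groups, and each is tied to the others because they add to the whole. Taken gene by gene, the FPKM of 32.2% of all genes tested did not overlap between groups, counting both directions.

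By sample, *Rarg* took 81.0%, 80.3% and 79.5% in CON and 77.3%, 78.3% and 78.2% in RA, so its share was lower in each RA sample by a few points at most. *Rarg* transcripts outnumbered those of *Rarb* per length by 183, 316 and 564 times in CON and by 117, 123 and 80.7 times in RA. *Rarb* thus stayed a minor transcript after its rise.

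*Rxra* held 78.9%, 79.7% and 78.6% of the summed RXR FPKM in CON and 82.0%, 80.4% and 81.9% in RA, with means of 79.1 ± 0.602% and 81.4 ± 0.872% (SD, n = 3). *Rxrb* held 20.8 ± 0.639% and 18.5 ± 0.729%. These groups did not overlap either, beside the same 32.2% of all genes tested, and the shares of *Rxra* and *Rxrb* nearly mirror each other. CON replicate 1, where both genes were low, had a share of *Rxra* within the range of the other CON samples. *Rxra* exceeded *Rxrb* by 3.75, 3.97 and 3.69 times in CON and by 4.54, 4.16 and 4.53 times in RA.

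Summed over the family, RAR transcripts came to 86.7 ± 5.18 FPKM for CON and 84.0 ± 1.13 FPKM for RA (SD, n = 3), and the groups overlapped. RXR transcripts came to 23.3, 35.1 and 37.3 FPKM in CON and to 38.1, 39.5 and 39.3 FPKM in RA, and the CON mean of 31.9 ± 7.49 FPKM (SD, n = 3) was 36.2 FPKM without CON replicate 1. Rescaled by TMM factors, the RXR sums of the groups overlapped, with 37.9 FPKM in CON replicate 3 and 37.7 FPKM in RA replicate 1. The ratio of the RAR to the RXR sum was 3.46, 2.53 and 2.43 in CON and 2.20, 2.10 and 2.16 in RA. It was lower in every RA sample, with a CON mean of 2.81 ± 0.570 that came to 2.48 without CON replicate 1 and an RA mean of 2.16 ± 0.0533 (SD, n = 3). These sums, shares and ratios are descriptions of chosen genes and were given no test. Groups that lie apart in them stand beside the 32.2% of all genes tested whose FPKM did not overlap in either direction.

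**Figure D3:**
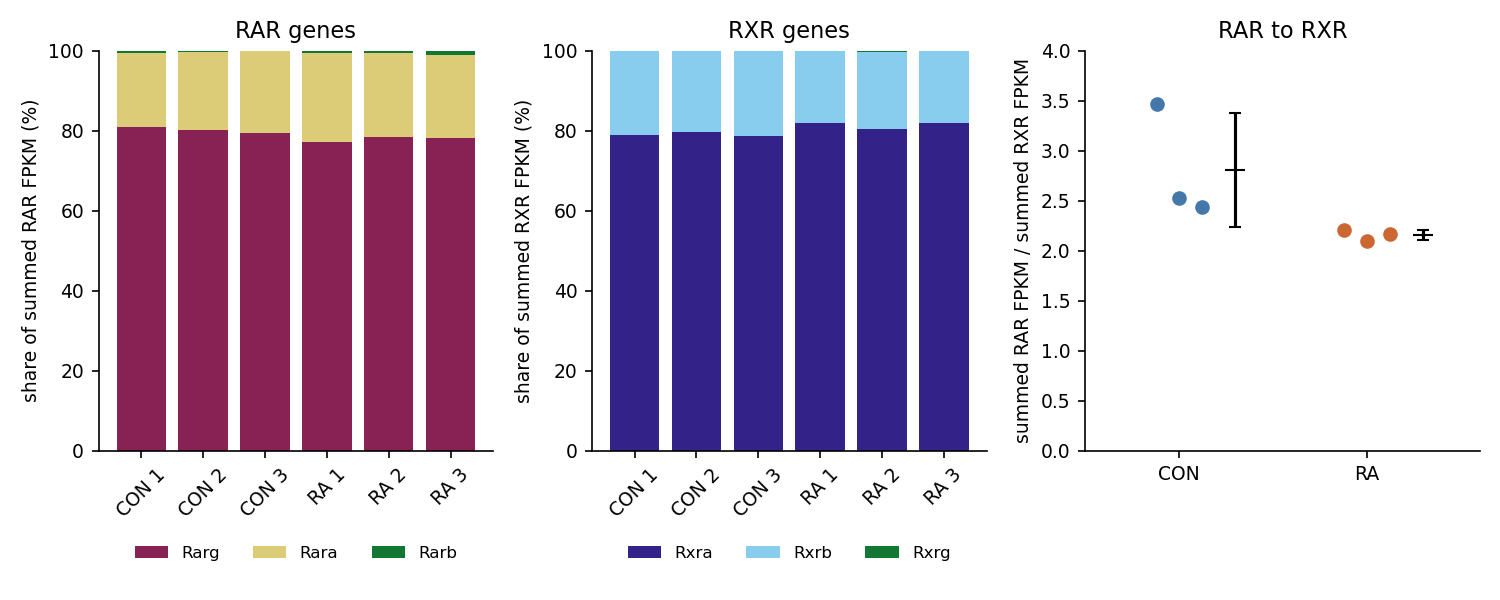
Share in percent of each RAR gene in the summed RAR FPKM (left) and of each RXR gene in the summed RXR FPKM (middle) by sample, and the ratio of the RAR to the RXR sum by sample with the group mean and SD (right). *Rarg* and *Rxra* make up 77.3% to 82.0% of their families in every sample, *Rarb* and *Rxrg* are slivers under 1%, and the CON ratio of 3.46 is that of replicate 1.

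Among the 48 nuclear receptor genes looked for, 42 were in the tables and 34 were tested. The mean level over all samples was at least 1 FPKM for 24 of them and at least 10 FPKM for 11. *Rarg* ranked highest, *Nr1h2*, which encodes the liver X receptor LXRβ, came next, then *Rxra*, and the RAR and RXR genes made up 37.1% of the summed nuclear receptor FPKM in CON and 37.5% in RA. *Rarb* was 1 of 5 DEGs among the 34 nuclear receptors tested, beside 4.96% of all genes, next to *Pparg*, *Nr2f1*, *Pgr* and *Esrrg*, and all 5 had a mean under 3 FPKM. CON replicate 1 was the lowest sample for 13 of the 34 (38.2%, beside 31.4% of all genes tested) and the highest for 8 (23.5%, beside 31.0%).

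**Figure D4:**
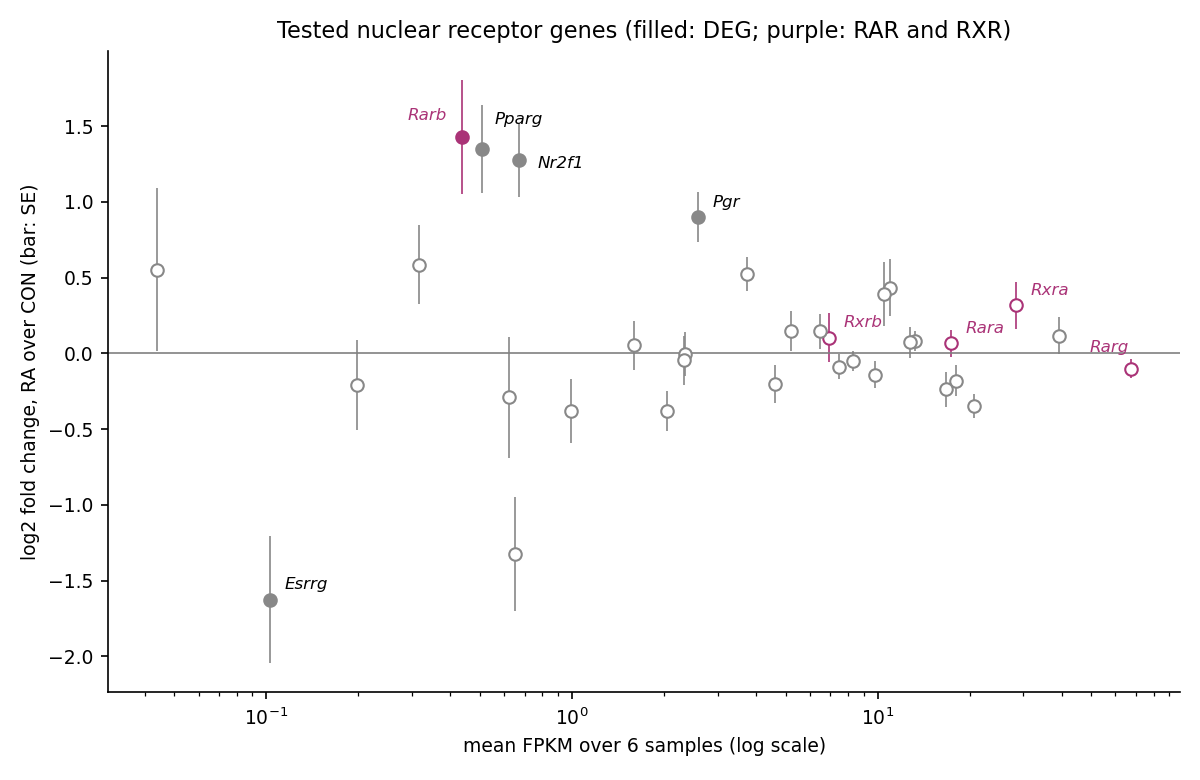
Log2 fold change of RA over CON with its SE (y axis) against the mean FPKM over the 6 samples (x axis, log scale) for the 34 nuclear receptor genes tested (purple, RAR and RXR genes; grey, others; filled, DEGs). The 5 DEGs all lie below 3 FPKM. *Rarg*, *Rxra*, *Rara* and *Rxrb*, at higher levels, lie between -0.10 and 0.32 and are not DEGs.

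Of 13 genes that encode the partners of RXR other than the RARs, 11 were in the tables and tested, and *Pparg* was the single DEG (9.09% of the list, beside 4.96% of all genes). *Pparg* encodes the fat-cell receptor PPARγ and was at 0.213, 0.275 and 0.356 FPKM in CON and at 0.573, 0.861 and 0.760 FPKM in RA, without overlap. Its log2 fold change was 1.35 (SE 0.293, adjusted p = 0.0228), and the call was lost without CON replicate 2, RA replicate 2 or RA replicate 3 (adjusted p of 0.0872, 0.108 and 0.0942). Of the 4 adipocyte markers, *Fabp4* rose as well (2.67 ± 0.468 and 4.72 ± 0.612 FPKM, SD, n = 3), while *Adipoq*, *Plin1* and *Cidec* had at most 8 reads in any sample. *Thra*, the thyroid hormone receptor gene with the highest level, was named after its values were seen and passed the adjusted p alone, with a log2 fold change of -0.35 (adjusted p = 0.0326), which held without CON replicate 1 and was lost in the other 5 fits that left out a sample (adjusted p from 0.0545 to 0.114). It was at 23.1 ± 0.778 FPKM without and 18.3 ± 1.63 FPKM with RA (SD, n = 3), and reads of *Nr1d1*, which overlaps it on the opposite strand, may be counted with it. The median log2 fold change over the 11 partner genes was -0.09, beside -0.01 over all genes tested.

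Among the other 29 nuclear receptor genes, 25 were in the tables and 18 were tested, with 3 DEGs (16.7%, beside the same 4.96%) and a median log2 fold change of 0.03. *Nr2f1* encodes the orphan receptor COUP-TF1 and stood at 0.386 ± 0.100 FPKM for CON and 0.952 ± 0.0826 FPKM for RA (SD, n = 3; log2 fold change 1.28, SE 0.245, adjusted p = 0.0131). *Pgr*, the progesterone receptor gene, stood at 1.79 ± 0.321 and 3.37 ± 0.391 FPKM (0.90, SE 0.165, adjusted p = 0.0109). *Esrrg*, named because the count is small, was the one that fell, from 32, 22 and 27 reads to 13, 6 and 5. *Nr2f1* lost its call without RA replicate 1 or 2, *Pgr* without RA replicate 1 or 3, and *Esrrg* in every fit that left out a sample except that without RA replicate 1.

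The corepressors and coactivators of nuclear receptors in general were 30 genes besides *Ncor1* and *Nrip1*, of which 29 were in the tables and tested. None was a DEG by edgeR, DESeq2 or limma, 5 of the 29 had an unadjusted p below 0.05 in edgeR, as 24% of all genes tested did, and the median log2 fold change was 0.02. Genes named from here on in the paragraph were chosen after their values were seen. The coactivator gene *Ncoa3* was higher in RA (15.0 ± 1.40 and 19.4 ± 0.826 FPKM, SD, n = 3; log2 fold change 0.36, adjusted p = 0.0278) and *Dcaf6* was lower (14.4 ± 1.78 and 11.4 ± 0.186 FPKM; -0.34, adjusted p = 0.0487), both on the adjusted p alone. With a sample left out, *Ncoa3* passed in 2 of 6 fits, those without CON replicate 1 or 3, and *Dcaf6* in 1, that without CON replicate 1. *Calcoco1* had 534 reads in RA replicate 3 and 22 to 34 reads in each of the other samples, so its fitted value of 2.82 (adjusted p = 0.170) rested on that sample and was -0.06 without it.

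The genes that supply, carry and remove RA, with known receptor targets, gave 21 names, of which 20 were in the tables and 17 were tested. Of these, 8 were DEGs (47.1%, beside 4.96% of all genes tested), 7 higher and 1 lower in RA (2.67% and 2.29% of all genes), while the median log2 fold change over the 17 was 0.02 and 8 of them lay below 0. The enzymes that degrade RA rose strongly. *Cyp26a1* stood at 0.562, 0.240 and 0.366 FPKM in CON and at 4.65, 3.47 and 3.92 FPKM in RA (log2 fold change 3.35, SE 0.276, adjusted p = 0.000213). *Cyp26b1* stood at 1.35, 1.71 and 1.46 FPKM in CON and at 9.51, 8.61 and 10.4 FPKM in RA (2.65, SE 0.115, adjusted p = 1.18e-05). For both, every RA sample was several times above every CON sample.

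*Dhrs3*, whose product turns retinaldehyde back to retinol, went from 14.0 ± 0.829 to 21.9 ± 1.07 FPKM (SD, n = 3; log2 fold change 0.63, SE 0.0765, adjusted p = 0.00143). The transglutaminase gene *Tgm2*, an RA target in many cells, went from 0.921 ± 0.169 to 1.74 ± 0.136 FPKM (0.91, SE 0.166, adjusted p = 0.0105). *Rarres1*, named for a response to a synthetic retinoid in skin, fell from 4.43 ± 0.358 to 2.44 ± 0.413 FPKM (-0.87, SE 0.164, adjusted p = 0.0121). *Cyp26c1* and *Dhrs9*, also DEGs of the list, were below the level set for naming and were added after their values were seen, with log2 fold changes of 2.12 and 1.34.

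Against these genes *Rarb* was a weaker call. *Cyp26a1*, *Cyp26b1* and *Dhrs3* were DEGs in 6 of the 6 fits that left out a sample, *Tgm2* and *Dhrs9* in 5, *Rarres1* in 4, *Cyp26c1* in 2 and *Rarb* in 1. *Tgm2* lost its call without RA replicate 3, *Dhrs9* without RA replicate 1, *Rarres1* without RA replicate 1 or 2, and *Cyp26c1* without CON replicate 3 or any RA replicate. Among these named genes *Rarb* and *Cyp26c1* had the widest errors, with SEs of 0.376 and 0.490, and both were counted by fewer than 80 reads in every sample.

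**Figure D5:**
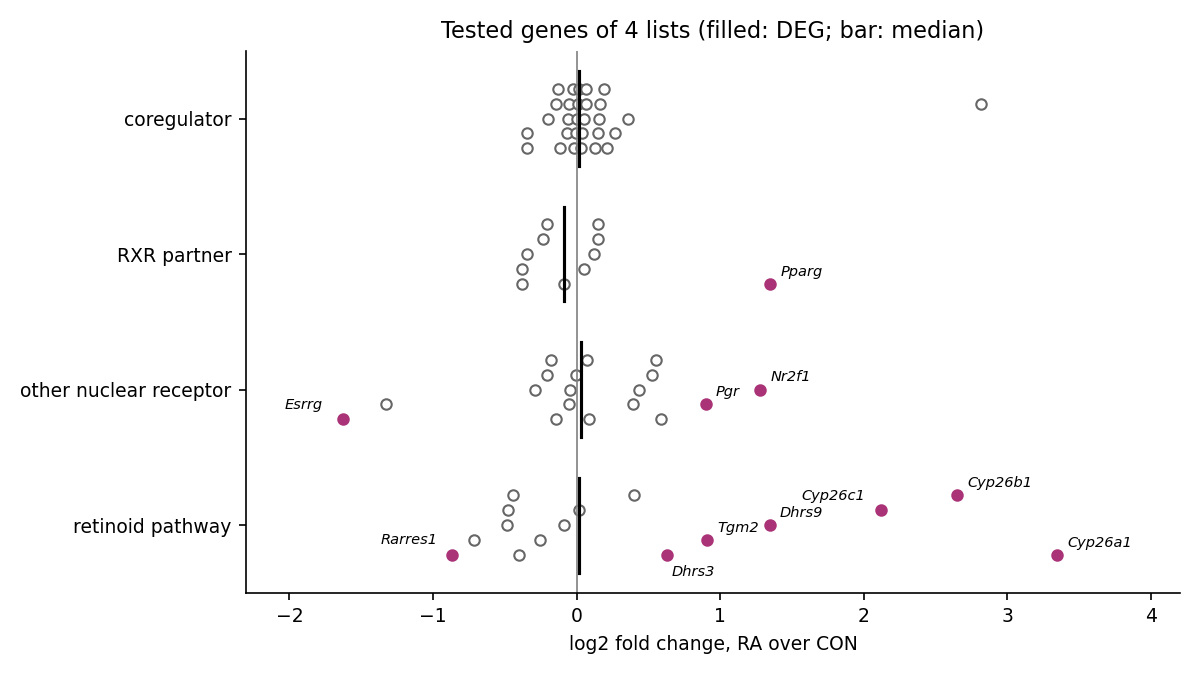
Log2 fold change of RA over CON (x axis) for each tested gene of the coregulators (29), RXR partners (11), other nuclear receptors (18) and retinoid pathway genes (16 of the 17), with DEGs filled and named and the list median as a black bar. The medians lie between -0.09 and 0.03, the filled points to the far right belong to the retinoid pathway, and the lone open point at 2.82 is *Calcoco1*.

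Among the genes whose profile over the 6 samples was most like that of *Rarb* were *Ibsp* and *B3galt2*. Likeness was the root mean square difference between centred log2 CPM over the 6 samples, among 10689 candidates, and was 0.272 and 0.277, against a median of 0.840. *Ibsp*, which encodes the bone sialoprotein of mineralizing tissue, had 40, 29 and 35 reads in CON and 76, 79 and 113 in RA, with RA replicate 3 the highest as for *Rarb* (log2 fold change 1.47, adjusted p = 0.00622). *B3galt2*, a galactosyltransferase gene, had 97, 64 and 61 reads in CON and 222, 152 and 188 in RA (1.44, adjusted p = 0.00915). Both share with *Rarb* that CON replicate 1 was the highest CON sample, while *B3galt2* was highest in RA replicate 1, unlike *Rarb*. The rise and the CON order shared with *Rarb* were favoured by the way these genes were picked.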

How the data were processed

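Poly(A) RNA of 3 CON and 3 RA samples was analysed, grouped and numbered by the sample labels. The authors deposited for each sample raw read counts for 18923 genes and FPKM values. The submitters' processing notes name HISAT2, HTSeq 0.13.5 and Rnor_6.0; the annotation and the use of strand are not given in the sources used here, so overlapping genes may share reads. The deposited FPKM equalled the count per length and per total count. Of identifiers, 158 share a symbol, and the one with the highest mean count was used. Counts were tested with edgeR 4.0.16 in R 4.3.3 (glmQLFit, glmQLFTest, TMM, filterByExpr with a minimum count of 10, no covariates, all 6 samples), which kept 13438 genes, with Benjamini-Hochberg adjustment over all of them. The SE came from the F statistic. The script was tested on simulated counts. Total counts were 29370025 to 38007486 per sample, and the common biological coefficient of variation was 0.122. FPKM are mean ± SD. Promoter windows came from RefSeq (GRCr8).

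The members and gene lists were chosen with earlier results of these data known. Genes outside the 8 members were named when they were DEGs of a list with a mean FPKM of at least 0.5 (at most 6 a list) or the 3 genes nearest to a member DEG. Alternatives were RLE and upper-quartile factors, no filter, a filter of 1 FPKM in 3 samples, DESeq2 1.42.0, limma 3.58.1 on log2(FPKM + 0.1, 1 or 0.01), a replicate block, the adjusted p alone, each sample left out, shares from unscaled counts, and levels from FPKM rescaled by TMM factors. Protein sequences were not analysed here, and a few genes of the lists are left unreported.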

Additional observations from a re-analysis of the deposited data

How the results depend on the processing

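The direction of *Rarb*, *Rarg*, *Rxra*, *Ncor1* and *Nrip1* held in every fit that was run, while *Rara* (-0.017) and *Rxrb* (-0.074) turned without CON replicate 1. The *Rarb* call was lost with upper-quartile factors (log2 fold change 1.42, adjusted p = 0.0507), with limma and a pseudocount of 0.1 (1.16, adjusted p = 0.0530) or 0.01 (1.47, adjusted p = 0.0636), and with limma and a pseudocount of 1, where the fold fell short (0.40, adjusted p = 0.0483). It could not be tested with the 1 FPKM filter, and it held with RLE factors, without a filter (adjusted p = 0.0342) and with DESeq2. Leaving out 1 sample moved the log2 fold change from 1.12 to 1.85 for *Rarb*, from -0.02 to 0.15 for *Rara*, from -0.14 to -0.06 for *Rarg*, from 0.13 to 0.45 for *Rxra*, from -0.07 to 0.27 for *Rxrb*, from -0.13 to -0.01 for *Ncor1* and from 0.19 to 0.31 for *Nrip1*. DEGs numbered 434 with limma and a pseudocount of 1, 1319 on the adjusted p alone and 480 to 755 with a sample left out. On the adjusted p alone, 2 coregulators and 2 RXR partners passed. With the 1 FPKM filter or limma with a pseudocount of 1, the counts were 0 RXR partners, 1 other nuclear receptor and 5 retinoid pathway genes, since low genes drop out or shrink. With a sample left out they were 0 to 1, 1 to 3 and 5 to 8. From counts not scaled by length, *Rarg* held 82.9% of the RAR sum in CON and 80.9% in RA, *Rxra* 64.1% and 67.4% of the RXR sum, and the RAR to RXR ratio was 4.59 and 3.58, each in the same direction as by FPKM. FPKM rescaled by TMM factors gave RAR sums of 87.1 (CON) and 83.7 (RA) and RXR sums of 32.1 and 38.8, where the RXR sums of the groups overlapped. Adding 50 bases after the start took the members with a DR5 from 0 to 1. The causes of the other changes were not tested.

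With the replicate number as a block, *Rarb* had a log2 fold change of 1.46 and an adjusted p of 0.0526. The numbers were not taken to pair the samples, since deviations of samples with the same number correlated by only 0.0928, -0.0123 and 0.0118. No other member changed its call under the block. The low counts of *Rarb* and *Rxrg* limit what depth can show for them.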
